A study of Mus musculus with 6 samples.

Results

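Small nucleolar RNAs and small Cajal body RNAs were compared in islets of Langerhans, the hormone-producing tissue of the pancreas, from mice that make lamin C but no lamin A and from wild-type mice. The members were all genes of the deposited count table whose symbol begins with Snora, Snord or Scarna followed by a digit. This rule found 114 of 24407 genes: 36 Snora, 69 Snord and 9 Scarna genes. No measured value entered the rule.

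Small nucleolar RNAs are short RNAs that pair with another RNA and place a protein enzyme on it. Those of the box C/D class (Snord) guide methylation of the ribose, with fibrillarin as the enzyme, and those of the box H/ACA class (Snora) guide the conversion of uridine to pseudouridine, with dyskerin; most act on ribosomal RNA. The small Cajal body RNAs (Scarna) carry one or both kinds of box and guide the same changes on the small nuclear RNAs of the spliceosome. In mammals most are cut out of introns of other genes after splicing, and their mature ends carry no poly(A) tail.

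Both groups were C57BL/6 mice, 70 weeks old, kept on regular chow. The lamin C only group (LCS) carries an altered Lmna gene, and Lmna encodes both lamin A and lamin C, proteins of the nuclear lamina. The titles of the LCS libraries carry the letters KIKI, which the titles do not explain. Each group had 3 libraries (LCS1 to LCS3 and WT1 to WT3), and islets of 3 different mice were pooled for every library, so single mice cannot be compared. The labels give polyA RNA as the molecule and a stranded TruSeq kit; the allele's construction, the sex of the mice and any library batch are not stated in the labels.

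Libraries held 26123654 to 68036676 counts. The entries Rn45s (the precursor of ribosomal RNA), Lars2 and Mir6236 together took 52.3% to 54.1% of the counts in LCS and 7.64% to 18.5% in WT, which left 19057533 to 32462401 counts per library on other genes. These 3 are called the ribosomal entries below as a short name. Whether the counts on Lars2 and Mir6236 come from ribosomal RNA was not tested. The levels below are CPM (counts relative to library size) scaled by TMM factors, called scaled CPM, fold changes are LCS over WT, and a gene was called at an adjusted p under 0.05 in edgeR's quasi-likelihood test across all 14539 genes with enough counts. Lmna stood at 62.4, 62.0 and 78.9 scaled CPM in LCS1 to LCS3 and at 61.3, 27.3 and 21 in WT1 to WT3, and counts per gene cannot tell the lamin A message from that of lamin C. With no scaling beyond library totals the median log2 fold change of all genes moved from 0.01 to -1.06, so directions are relative to that median, and hosts and proteins with small changes turn below 0 there. WT1 stood apart from the other WT libraries: without it the share of all genes called higher was 12.5%. No batch is labelled, but the numbers in the titles of WT1 and WT2 are far from those of WT3 and the LCS libraries. What they stand for is not stated. Compared with WT3 alone, the tested members had a median log2 fold change of 2.01, beside 0.04 over all genes tested. That fit assumes that WT3 varies like the LCS libraries. Islet hormone and endocrine markers were high in every library, with 198676 to 295957 scaled CPM over 8 markers in LCS libraries and 166552 to 192122 in WT libraries. All 8 acinar (digestive enzyme) markers were called higher in LCS, where they summed to 375 to 681 scaled CPM against 105 to 166 in WT, and none was at 0. Also called higher were the islet hormone Ppy (3.63-fold, edgeR adjusted p = 0.0172) and the macrophage marker Lyz2 (2.79-fold, edgeR adjusted p = 0.0142). The other macrophage markers, Adgre1, Csf1r and Cd68, had log2 fold changes of -0.62, -0.16 and -0.03 and were not called. Sst was 2.98-fold higher with no overlap but not called (edgeR adjusted p = 0.103). The part of the ribosomal entries, of these other cell types and of poly(A) selection in the results below was not tested. In such bulk samples fewer cells of a type and less RNA per cell cannot be told apart.

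The RNAs on which the results turn are shown first, as DNA letters of the RNA's own strand from GENCODE M21 transcripts of the GRCm38 build. Capitals mark the boxes: in Snord and Scarna genes box C (TGATGA, searched in the first 20 bases) and box D (CTGA, last 20 bases), and in Snora genes box H (ANANNA, searched from 30% to 70% of the length) and the ACA near the end (last 10 bases). The first set holds the 5 Snord genes with the smallest p-values, in order of chromosome Snord17 on chromosome 2, Snord15b on 7, Snord104 on 11, Snord8 on 14 and Snord22 on 19.
Snord22: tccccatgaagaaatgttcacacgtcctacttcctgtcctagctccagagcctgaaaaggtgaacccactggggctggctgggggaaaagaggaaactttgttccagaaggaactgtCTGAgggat
Snord17: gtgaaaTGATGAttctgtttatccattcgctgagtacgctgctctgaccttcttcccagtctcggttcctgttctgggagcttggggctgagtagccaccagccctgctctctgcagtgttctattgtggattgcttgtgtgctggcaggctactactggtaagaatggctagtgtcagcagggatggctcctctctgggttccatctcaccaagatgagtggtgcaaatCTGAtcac
Snord15b: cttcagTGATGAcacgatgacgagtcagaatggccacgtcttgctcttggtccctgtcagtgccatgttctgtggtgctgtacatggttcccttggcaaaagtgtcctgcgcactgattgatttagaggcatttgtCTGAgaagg
Snord8: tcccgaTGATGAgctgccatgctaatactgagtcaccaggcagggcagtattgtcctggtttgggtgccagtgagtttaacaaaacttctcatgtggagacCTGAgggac
Snord104: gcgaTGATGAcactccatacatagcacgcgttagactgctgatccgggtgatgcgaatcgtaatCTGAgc

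The next set holds the 2 Snora genes with the smallest p-values, on chromosomes 6 and 11, and the Scarna gene with the smallest, on chromosome 1.
Snora7a: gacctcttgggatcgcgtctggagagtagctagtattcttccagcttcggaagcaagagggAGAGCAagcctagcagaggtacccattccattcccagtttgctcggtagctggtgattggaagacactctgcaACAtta
Snora5c: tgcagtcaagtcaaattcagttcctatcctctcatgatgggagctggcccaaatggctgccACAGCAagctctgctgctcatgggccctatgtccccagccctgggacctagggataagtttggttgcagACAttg
Scarna6: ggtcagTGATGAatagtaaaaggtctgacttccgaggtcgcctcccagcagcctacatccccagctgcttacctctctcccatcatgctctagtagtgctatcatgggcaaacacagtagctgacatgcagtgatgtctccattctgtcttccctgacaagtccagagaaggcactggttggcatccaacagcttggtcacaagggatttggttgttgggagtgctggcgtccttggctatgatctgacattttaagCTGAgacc

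For comparison, 3 members of similar build that were tested and not called are Snora61 on chromosome 4, Snord12 on chromosome 2 and Snord96a on chromosome 11.
Snora61: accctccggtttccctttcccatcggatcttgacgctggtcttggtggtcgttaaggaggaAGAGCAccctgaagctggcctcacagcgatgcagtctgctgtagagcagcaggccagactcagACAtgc
Snord12: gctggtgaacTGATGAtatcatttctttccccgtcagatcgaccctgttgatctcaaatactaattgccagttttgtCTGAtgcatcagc
Snord96a: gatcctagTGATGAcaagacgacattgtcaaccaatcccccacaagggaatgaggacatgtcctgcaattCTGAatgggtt
Among the members shown, called and uncalled ones both carry the boxes of their class, except that Snord22 has no exact TGATGA in the searched window. Over the members with a GENCODE sequence, both C and D were found in 41 of 67 Snord (61.2%), 4 of 9 Scarna (44.4%) and 0 of 36 Snora genes. Box H with the terminal ACA was found in 32 of 36 Snora (88.9%), 3 of 9 Scarna (33.3%) and 3 of 67 Snord genes (4.48%). Among 4242 other small RNAs of 60 to 300 nt (small nuclear, micro, ribosomal and miscellaneous RNAs) the shares were 0.024% for C with D and 6.04% for H with ACA. Only the RNA's own strand was searched, and a match is a description of the letters.

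Summed over all members, filtered or not, the level was higher in every LCS library than in any WT library. The 114 genes together stood at 427, 439 and 424 scaled CPM in LCS1 to LCS3 and at 44.8, 45.5 and 55.8 in WT1 to WT3, that is 430 ± 8.07 against 48.7 ± 6.17 (SD, n = 3 libraries each), a ratio of 8.82. The LCS libraries lay close together and did not approach the WT range. As a share of counts outside the 3 ribosomal entries the members held 0.0637% ± 0.00536 in LCS and 0.00805% ± 0.000915 in WT, a ratio of 7.91. As a share of all counts, the ribosomal entries included, the ratio was 4.19.

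The classes differed in their pattern across libraries. The Snora sums were 62.5, 61.7 and 31.2 scaled CPM in LCS1 to LCS3 against 11.2, 14 and 10.7 in WT1 to WT3 (ratio 4.33), with LCS3 at a lower level than the other LCS libraries. The Snord sums were 333, 348 and 358 in LCS against 30.8, 29.3 and 43.1 in WT (ratio 10.1). The Scarna sums were 30.8, 29.4 and 34.2 in LCS against 2.72, 2.2 and 2.09 in WT (ratio 13.5). No class overlapped between the groups, and LCS3 was lowest for Snora and highest for Snord and Scarna. Whether these ratios differ between classes was not tested.

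**Figure D1:**
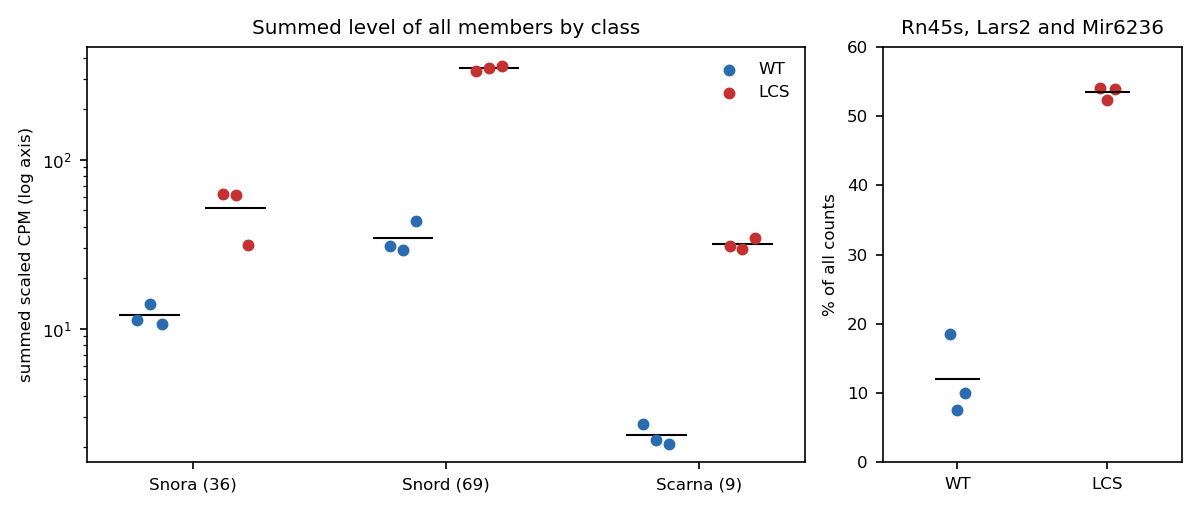
Left, summed scaled CPM of all members of each class on a log axis, 1 point per library; right, percent of all counts on Rn45s, Lars2 and Mir6236. In each class the 3 LCS points lie above the 3 WT points, and the ribosomal share is 52.3% to 54.1% in LCS libraries and 7.64% to 18.5% in WT libraries.

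A few Snord genes carried most of these counts in LCS and a smaller part of them in WT. Snord22, Snord15b, Snord17 and Snord104 together made up 70.3%, 65.8% and 71.0% of the members' counts in LCS1 to LCS3 and 45.4%, 34.4% and 50.9% in WT1 to WT3. Snord22 was the largest member in all 6 libraries. Per 100 nt of RNA, mean levels in LCS were 115 scaled CPM for Snord22, 47.3 for Snord15b, 36.5 for Snord104, 24.1 for Snord17 and 9.69 for Snord8. In WT the per-length levels were 8.18, 4.69, 3.56, 0.791 and 0.570 in the same order, so the order of these 5 did not change. The number of members seen did not follow the level: 83, 89 and 75 members had at least 1 count in LCS1 to LCS3, and 83, 91 and 90 in WT1 to WT3. At a minimum of 10 counts the numbers were 53, 68 and 57 in LCS and 48, 46 and 39 in WT.

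Of the 114 members, 12 had no count in any library (5 Snora and 7 Snord), 45 had counts but too few for the test, and 57 were tested. Among those tested 25 were called higher in LCS (43.9%), against 2.06% of all genes tested, and 0 were called lower, against 0.144% of all genes. By an unadjusted p under 0.05, 37 of the 57 members were higher, against 13.3% of all genes, and 2 were lower, against 10.8%; both DESeq2 and limma-voom called 0 lower. In 36 members all LCS libraries lay above all WT libraries, against 14.6% of all genes, and in 2 members all LCS libraries lay below, against 12.0%. The other 19 overlapped. The low-count filter touches this count: a member needs about 0.263 CPM in 3 libraries, and 12 tested members met this in all LCS but not all WT libraries, 11 in all WT but not all LCS libraries and 29 in all 6. Of the 25 called, 16 met it in all 6 libraries and 9 in all LCS but not all WT libraries. The counts are therefore given as a description of the genes that passed.

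By class, 10 of 20 tested Snora, 11 of 31 tested Snord and 4 of 6 tested Scarna genes were called higher. The median log2 fold change of the tested members was 1.84, with the middle of the distribution from 0.55 to 3.72 and extremes of -1.90 and 5.10, beside 0.01 over all genes tested. The class medians were 1.96 for Snora, 1.83 for Snord and 4.03 for Scarna. Called members ranged from 1.73 to 5.10, or 3.31-fold to 34.2-fold. Within LCS, of the 10 called Snora genes 7 were highest in LCS1, 3 in LCS2 and 0 in LCS3, while 8 of the 11 called Snord genes were highest in LCS3 and 8 lowest in LCS1. Over all 300 genes called higher, 223 were highest in LCS3 and 112 lowest in LCS1, so the larger number in LCS3 is not particular to Snord genes.

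**Figure D2:**
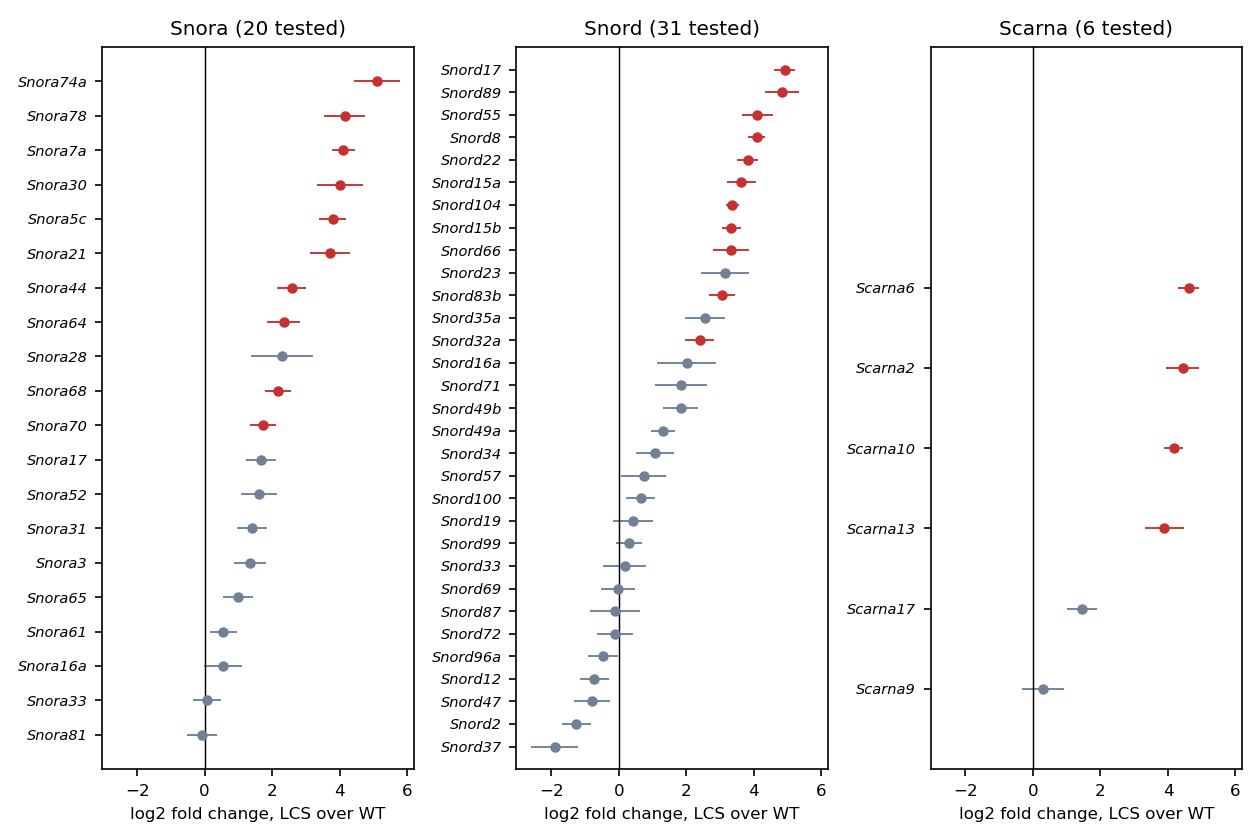
Log2 fold change (LCS over WT) with its standard error for every tested member, by class; red points were called higher at an adjusted p under 0.05 in edgeR's quasi-likelihood test and grey points were not called. Called members run from 1.73 to 5.10, and the lowest estimate is -1.90 for Snord37.

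Among Snord genes, the most abundant ones rose. Snord22, an RNA known to be needed for processing of the small-subunit ribosomal RNA, stood at 142, 127 and 167 scaled CPM in LCS1 to LCS3 and at 9.07, 6.42 and 15.4 in WT1 to WT3. Its lowest LCS value was far above its highest WT value, and the fold change was 14.1 (log2 3.82, SE 0.30, edgeR adjusted p = 0.000266). Snord17 stood at 80.3, 45.9 and 45.6 scaled CPM in LCS and at 2.39, 1.90 and 1.36 in WT. LCS1 was high against LCS2 and LCS3, but all 3 were well above WT, with a 30.2-fold difference (log2 4.92, SE 0.31, edgeR adjusted p = 7.6e-05). Snord15b, a guide for methylation of the large-subunit ribosomal RNA, stood at 54.8, 92.0 and 58.9 in LCS and at 6.69, 4.81 and 8.88 in WT. LCS2 was highest here, and the groups differed 10.1-fold (log2 3.34, SE 0.28, edgeR adjusted p = 0.000331).

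Snord104, a further guide for the large-subunit RNA, had the smallest SE of the log2 fold change among the called members. It stood at 23.2, 24.1 and 29.5 scaled CPM in LCS and at 2.18, 2.54 and 2.74 in WT, or 25.6 ± 3.43 against 2.49 ± 0.284 (SD, n = 3). The fold change was 10.3 (log2 3.36, SE 0.19, edgeR adjusted p = 4.97e-05), the smallest adjusted p among the members. Snord8, whose target is the U6 small nuclear RNA of the spliceosome, stood at 8.39, 11.1 and 12.5 in LCS and at 0.582, 0.568 and 0.731 in WT. Every LCS library was many times above WT, and the fold change was 17 (log2 4.09, SE 0.26, edgeR adjusted p = 7.6e-05).

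The other called Snord genes were scarcer. Snord89 stood at 2.69, 4.2 and 4.85 scaled CPM in LCS and at 0.146, 0.222 and 0.0261 in WT (log2 4.85, SE 0.50, edgeR adjusted p = 0.00155), with 7, 9 and 1 counts behind the WT values. Snord55 stood at 2.45, 2.22 and 4.59 in LCS and at 0.104, 0.173 and 0.261 in WT (log2 4.11, SE 0.46, edgeR adjusted p = 0.00261). Snord15a, the close relative of Snord15b in another intron of the same gene, stood at 3.67, 7.27 and 7.46 in LCS and at 0.728, 0.222 and 0.522 in WT (log2 3.62, SE 0.43, edgeR adjusted p = 0.00386). None of the 3 overlapped between groups, and how reads shared by the similar Snord15a and Snord15b were counted is not stated in the labels or the file. Snord83b stood at 2.24, 3.28 and 5.49 in LCS and at 0.395, 0.444 and 0.470 in WT, with a log2 fold change of 3.07. Snord66 (log2 3.31), with 4, 3 and 2 counts in WT1 to WT3, and Snord32a (log2 2.39) were also called. Snord66 lost its call without LCS3, WT2 or WT3 (log2 3.02 to 3.52, edgeR adjusted p from 0.00776 to 0.0712 with single libraries left out), and Snord32a without LCS2, LCS3 or WT2 (log2 2.09 to 2.74, adjusted p from 0.00907 to 0.0909).

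**Figure D3:**
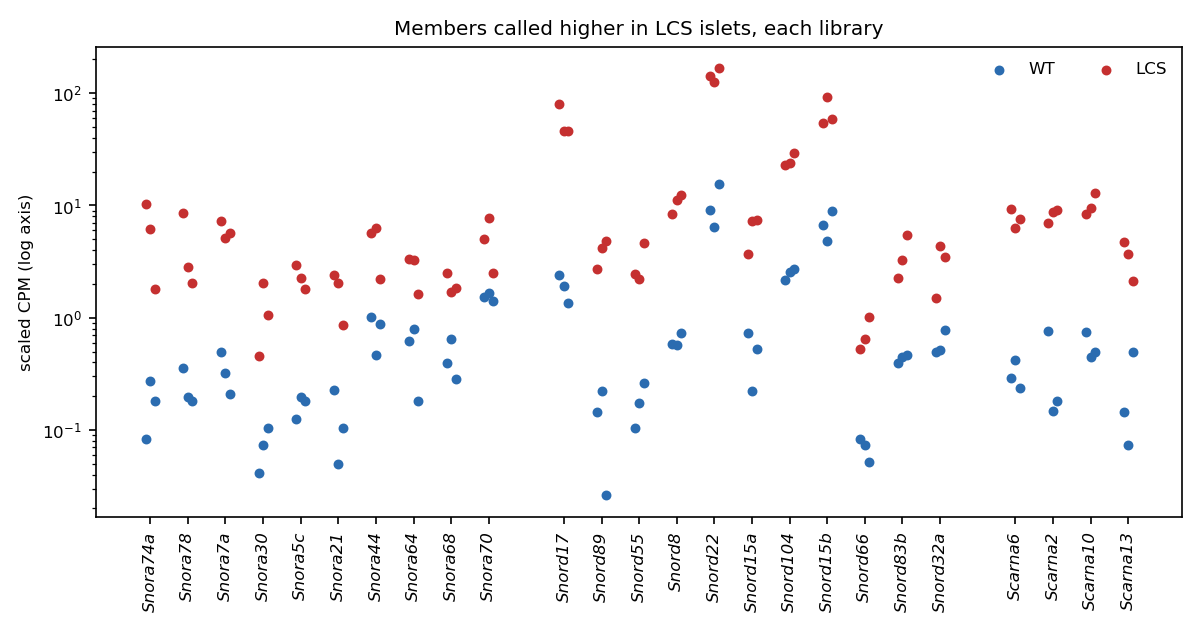
Scaled CPM of the 25 members called higher, on a log axis, with 1 point per library and libraries 1 to 3 from left to right within each gene. For every gene the 3 LCS points lie above the 3 WT points; Snord22 is the highest in both groups.

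Of the Snora genes, 10 of 20 tested were called higher. Snora7a stood at 7.34, 5.13 and 5.71 scaled CPM in LCS1 to LCS3 and at 0.499, 0.321 and 0.209 in WT1 to WT3, with the groups far apart and a 17.2-fold difference (log2 4.1, SE 0.34, edgeR adjusted p = 0.000331). Snora5c stood at 2.97, 2.26 and 1.82 in LCS and at 0.125, 0.197 and 0.183 in WT, a 13.8-fold difference (log2 3.79, SE 0.39, edgeR adjusted p = 0.00155). Both were highest in LCS1 and did not overlap with WT.

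In 2 further Snora genes LCS1 lay far above the other LCS libraries. Snora74a stood at 10.3, 6.19 and 1.82 scaled CPM in LCS and at 0.0832, 0.271 and 0.183 in WT, the largest fold change of any member at 34.2 (log2 5.10, SE 0.68, edgeR adjusted p = 0.00711). Its WT values rest on 4, 11 and 7 counts. Snora78 stood at 8.63, 2.81 and 2.04 in LCS and at 0.353, 0.197 and 0.183 in WT (log2 4.15, SE 0.61, edgeR adjusted p = 0.0117). Both kept their calls when any single library was left out, with log2 fold changes of 4.52 to 5.54 for Snora74a and 3.30 to 4.53 for Snora78; without LCS1 the estimate for Snora78 was the lowest of these.

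The remaining 6 called Snora genes had calls that rested on single libraries. Snora21 (2.41, 2.02 and 0.861 scaled CPM in LCS, 0.229, 0.0493 and 0.104 in WT, log2 3.72) was not called without LCS1. Snora30 (0.454, 2.02 and 1.05 in LCS, 0.0416, 0.074 and 0.104 in WT, log2 4.01) was not called without LCS3 or WT2. The WT values rest on 11, 2 and 4 counts for Snora21 and on 2, 3 and 4 counts for Snora30. Over the fits without 1 library, edgeR's adjusted p ran from 0.00208 to 0.0674 and log2 from 3.35 to 4.48 for Snora21, and from 0.0091 to 0.0667 and from 3.37 to 4.40 for Snora30. Snora44 (5.70, 6.32 and 2.23 in LCS, 1.02, 0.469 and 0.888 in WT, log2 2.58) was not called without LCS1, LCS2 or WT2. Snora68 (2.52, 1.71 and 1.85 in LCS, 0.395, 0.642 and 0.287 in WT, log2 2.18) was not called without LCS1, LCS3 or WT3. Their log2 ranges were 2.32 to 2.92 for Snora44 (edgeR adjusted p from 0.00402 to 0.0892) and 1.96 to 2.54 for Snora68 (0.00929 to 0.0982). Snora64 (log2 2.35) kept its call only without WT1, with 1.95 to 2.72 over these fits (edgeR adjusted p from 0.012 to 0.142), and Snora70 (log2 1.73) only without LCS3 or WT1, with 1.30 to 2.06 (0.0171 to 0.142). The class count of 10 accordingly became 5 without LCS1 and 6 without WT2. Over all genes tested the share called higher also fell, from 2.06% to 0.581% without LCS1 and 0.748% without WT2. Fewer calls in these fits are therefore not particular to Snora genes.

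Among Cajal body RNAs, 4 of 6 tested genes rose. Scarna6 stood at 9.37, 6.34 and 7.65 scaled CPM in LCS1 to LCS3 and at 0.291, 0.419 and 0.235 in WT1 to WT3, or 7.79 ± 1.52 against 0.315 ± 0.0945 (SD, n = 3), a 24.4-fold difference (log2 4.61, SE 0.31, edgeR adjusted p = 8.97e-05). Scarna10, which guides both kinds of modification on the U5 small nuclear RNA, stood at 8.39, 9.54 and 12.9 in LCS and at 0.748, 0.444 and 0.496 in WT (log2 4.17, SE 0.29, edgeR adjusted p = 0.000111). Of the 6 tested Scarna genes these had the smallest SE of the log2 fold change.

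Scarna2, a guide for the U2 small nuclear RNA, stood at 6.96, 8.84 and 9.19 scaled CPM in LCS and at 0.769, 0.148 and 0.183 in WT (log2 4.44, SE 0.49, edgeR adjusted p = 0.00253). WT1 was above the other WT libraries, and leaving out single libraries gave log2 fold changes of 4.08 to 5.63. Scarna13 stood at 4.72, 3.69 and 2.14 in LCS and at 0.146, 0.074 and 0.496 in WT (log2 3.90, SE 0.57, edgeR adjusted p = 0.012). It was not called without LCS1 (log2 3.65, adjusted p = 0.0574, in a range of 0.00143 to 0.0574 over the libraries left out). Scarna17 stood apart by its ranges (0.629, 0.609 and 0.893 in LCS, 0.333, 0.247 and 0.183 in WT) but was not called (log2 1.45, SE 0.44, edgeR adjusted p = 0.0998). Scarna9 overlapped between groups (log2 0.31, SE 0.63, edgeR adjusted p = 0.793).

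Of the tested members, 32 were not called, and several abundant ones had similar levels in both groups. Snora81 stood at 1.54, 2.02 and 0.574 scaled CPM in LCS and at 1.75, 1.60 and 1.04 in WT (log2 -0.07, SE 0.44, edgeR adjusted p = 0.932). Snora61 stood at 0.839, 2.14 and 1.88 in LCS and at 0.852, 1.09 and 1.41 in WT (log2 0.56, SE 0.39, edgeR adjusted p = 0.409). These ranges overlapped, and the interval of 1 SE on either side of the Snora81 estimate spans a rise and a fall. Snord12 was lower on average (0.385, 0.354 and 0.765 in LCS, 0.707, 0.913 and 0.836 in WT, log2 -0.72, SE 0.42, edgeR adjusted p = 0.318). Snord96a, with a log2 fold change of -0.47, also overlapped.

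In other members 1 library set the value. Snord16a stood at 0.14, 10.04 and 4.88 scaled CPM in LCS1 to LCS3 and at 0.894, 1.58 and 1.31 in WT, so LCS1 was the lowest of all 6 and LCS2 the highest (log2 2.02, SE 0.87, edgeR adjusted p = 0.197). Without LCS1 its log2 fold change was 2.60 with an adjusted p of 0.0286. Snora28 was high in LCS2 alone (0.559, 4.83 and 0.51 in LCS, 0.125, 0.864 and 0.261 in WT, log2 2.29, edgeR adjusted p = 0.174). LCS2 was also the library in which Snora23, which was not tested, had 127 counts, against 1 and 4 in LCS1 and LCS3 and 10, 7 and 3 in WT. Nearest to the threshold from the other side were Snord23 (log2 3.14, SE 0.71, edgeR adjusted p = 0.0542) and Snord35a (log2 2.55, SE 0.59, edgeR adjusted p = 0.0565), both with all LCS above all WT libraries. Snord49a (log2 1.31) and Snord49b (log2 1.83), from 1 host transcript, had edgeR adjusted p-values of 0.0876 and 0.0932.

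Of the 57 tested members 9 had a negative log2 fold change, against 7105 of all 14539 genes tested. Untested members with a lower mean in LCS were not limited to those named here. The lower members below were named after their values were seen. Snord2 stood at 0.315, 0.236 and 0.415 scaled CPM in LCS and at 0.561, 0.888 and 0.836 in WT (log2 -1.26, SE 0.43, edgeR adjusted p = 0.126). Snord37 stood at 0.105, 0.137 and 0 in LCS and at 0.291, 0.321 and 0.392 in WT (log2 -1.90, SE 0.71, edgeR adjusted p = 0.15). These were the 2 tested members whose LCS libraries all lay below WT. Among untested members, Snora15 had 0 counts in all LCS libraries and 11, 14 and 5 in WT1 to WT3, at least 8.74-fold lower when the LCS level is set at the floor of 3 counts over the group. Snord38a had 0 counts in LCS and 3, 3 and 4 in WT, at least 2.91-fold lower by the same floor. These are counting bounds; in the edgeR fit with no low-count filter Snora15 was called lower and Snord38a was not. The other direction also occurred among untested members: Snora47 had 45, 45 and 9 counts in LCS and 2, 3 and 1 in WT, and Snora43 had 12, 19 and 9 in LCS and 2, 7 and 3 in WT. Snord35b (2, 30 and 12 in LCS, 6, 6 and 2 in WT) and Snord65 (4, 11 and 7 in LCS, 6, 7 and 15 in WT) overlapped. The entries Snord116, Snord116l1 and Snord116l2, of the imprinted cluster known from nerve cells, had no count in any library.

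Longer Snord genes had higher fold changes, an order not seen among Snora genes, whose lengths vary little. Lengths are those of GENCODE M21, and the intervals that the authors counted over are not stated in the labels or the file. The 9 Snord genes of 100 nt or more had 7 tested members, of which 6 were called, with log2 fold changes of 3.14 to 4.92 and a median of 3.82. The 58 shorter ones had 24 tested members, of which 5 were called, with a median of 0.69 and a range of -1.90 to 4.11. This split at 100 nt was chosen after the values were seen and carries no test. Across the 31 tested Snord genes Spearman's rho of length and log2 fold change was 0.55, and across the 20 tested Snora genes 0.06, as a description over genes that share the same 6 libraries. Called Snord genes had a median length of 110 nt (70 to 238) and uncalled ones 78.5 nt (64 to 109). Called and uncalled Snora genes had medians of 135 and 131 nt. Called Scarna genes were 265 to 414 nt long and the uncalled Scarna17 and Scarna9 entries 79 and 70 nt, but RefSeq gives 61 nt for Scarna2 and 71 nt for Scarna10, which were called, and 62 and 42 nt for Scarna17 and Scarna9, so that order depends on the annotation. RefSeq lengths, an alternative added after the data were seen, also put Snord8 (99 nt), Snord89 (94 nt) and Snord23 (99 nt) under the split. With them 4 of 4 tested Snord genes of 100 nt or more were called (median 3.72) and 7 of 27 shorter ones (median 1.07), and rho was 0.65 for Snord and 0.12 for Snora genes. The 5 called Snord genes under 100 nt were Snord104 (70 nt, log2 3.36), Snord66 (75 nt, 3.31), Snord55 (79 nt, 4.11), Snord32a (83 nt, 2.39) and Snord83b (94 nt, 3.07).

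**Figure D4:**
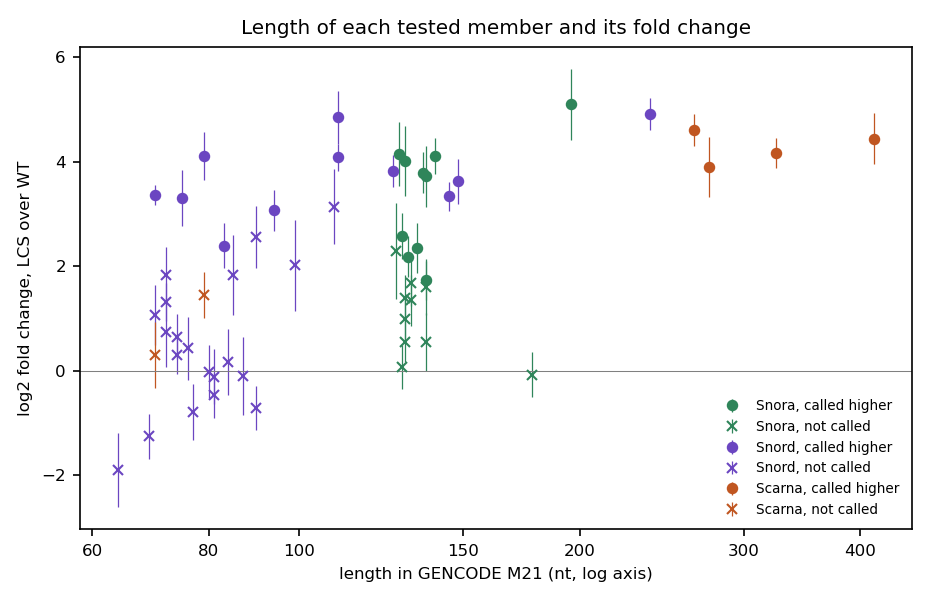
Length in GENCODE M21 (log axis, nt) against the log2 fold change (LCS over WT) of each tested member, coloured by class. The 7 Snord genes of 100 nt or more lie between 3.14 and 4.92, and shorter Snord genes spread from -1.90 to 4.11.

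Most members lie inside another gene, so each was set beside its host. By position in GENCODE M21, 107 of the 112 members with an entry had a host on the same strand, 81 different genes in all, and 30 members lay in 22 ribosomal protein genes. For 51 tested members the host was tested too. Those 51 members lay in 40 hosts, of which 11 were called higher and 0 lower, beside 2.06% and 0.144% of all genes tested. The median host log2 fold change was 0.44, and the member was above its host in 37 of 51 pairs. For the 21 called members with a tested host, 3 of 20 hosts were called higher, the host median was 0.39 (range -0.29 to 1.26) and the member median 3.79. The member exceeded its host in 21 of 21 such pairs, by 1.14 to 4.88 on the log2 scale. For the 30 uncalled pairs the host median was 0.77 and the member median 0.55. Since a called member had to be high, the 21 pairs describe these genes and test nothing.

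The largest excess of a member over its host was that of Snord17. Its host Snx5, a sorting protein of endosomes, had a log2 fold change of 0.03 (SE 0.13, edgeR adjusted p = 0.892). Per 1000 counts of Snx5 there were 1272, 651 and 671 counts of Snord17 in LCS1 to LCS3 and 37.2, 28.7 and 20.8 in WT1 to WT3. Scarna6 lies in Atg16l1, a gene of autophagy, whose log2 fold change was 0.21 (SE 0.16, edgeR adjusted p = 0.444), and had 477, 395 and 353 counts per 1000 host counts in LCS and 18.3, 25.7 and 15.1 in WT. Snord8 lies in Chd8, a chromatin remodeller (log2 -0.16, SE 0.15, edgeR adjusted p = 0.536), and had 146, 224 and 261 counts per 1000 in LCS and 12.1, 9.54 and 11.6 in WT. In these pairs the ratio to the host was higher in every LCS library than in any WT library.

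Of the 15 ribosomal protein hosts with a tested member, 8 were called higher, beside 2.06% of all genes tested. The member exceeded its host in 13 of their 20 pairs. Ribosomal protein hosts with untested members only are not in these counts, and some of them were called higher too. Rps3, the host of Snord15a and Snord15b, had a log2 fold change of 0.47 (edgeR adjusted p = 0.151), and Snord15b had 118, 189 and 98.7 counts per 1000 host counts in LCS and 21.5, 12.8 and 20.6 in WT. Rpl32, the host of Snora7a, had 0.71 (edgeR adjusted p = 0.0655), with 20.2, 17.4 and 13.7 counts of Snora7a per 1000 in LCS and 2.72, 1.51 and 0.895 in WT. Rpl13a (log2 1.26, edgeR adjusted p = 0.0123) and Rpl23 (log2 0.80, adjusted p = 0.0364), the hosts of Snord32a and Snora21, were themselves called higher. These host calls were lost when some single libraries were left out: Rpl13a without LCS1, and Rpl23 without LCS1, LCS3, WT2 or WT3. Scaled by library totals their log2 fold changes were 0.17 and -0.29, above the median of all genes. The ratio of member to host overlapped between groups for Snord32a in Rpl13a, Snora70 in Rpl10 and Snora64 in Rps2. In this annotation 8 members overlap an exon of their host, among them Snora7a, Snora44, Snora61, Snord22 and Snord99. Host and member reads may not be told apart there.

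**Figure D5:**
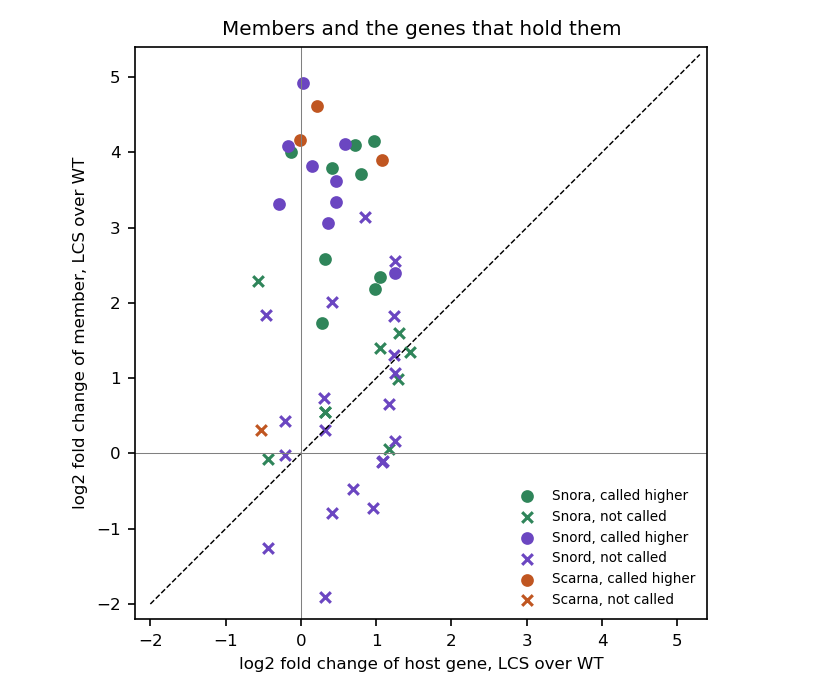
Log2 fold change (LCS over WT) of each member against that of the gene that holds it, for 51 tested pairs; circles were called higher, crosses were not, and the dashed line marks equal change. All 21 circles lie above the line, and hosts range from -0.57 to 1.44.

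Members of 1 host did not always share a call. In 19 hosts 2 or more members were found, 45 members in all. Snhg12, a noncoding host (log2 0.32), holds Snora44, called at 2.58, beside Snora61 at 0.56, Snora16a at 0.55 and Snord99 at 0.31, none of them called. Rpl13a holds Snord32a at 2.39 (called), Snord35a at 2.55, Snord34 at 1.07 and Snord33 at 0.17. In Rps3 both members, Snord15a and Snord15b, were called. In Rps12, which was itself called higher (log2 1.17, edgeR adjusted p = 0.019), neither Snora33 (log2 0.07) nor Snord100 (log2 0.65) was called. Whether members of 1 host differ from each other was not tested.

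A list of 19 noncoding host transcripts, the Snhg genes with Gas5 and Epb4.1l4aos, was also counted. All 19 were tested, and 2 were called higher and 0 lower, with a median log2 fold change of 0.32, beside 2.06% of all genes called higher. By edgeR's unadjusted p under 0.05, 8 were higher and 2 lower, against 13.3% and 10.8% of all genes. Snhg8 stood at 33.7, 24.0 and 40.3 scaled CPM in LCS and at 11.2, 13.6 and 13.0 in WT (log2 1.37, SE 0.20, edgeR adjusted p = 0.0122), while Snora24, the member inside it, had no count in any library. Snhg6 stood at 6.47, 8.50 and 8.99 in LCS and at 4.68, 3.50 and 3.00 in WT (log2 1.10, SE 0.23, edgeR adjusted p = 0.0431), while Snord87 inside it had a log2 fold change of -0.10. The Snhg8 call was lost without LCS1 (log2 1.38, adjusted p = 0.0612) and that of Snhg6 without LCS1, LCS2, LCS3, WT2 or WT3 (log2 0.96 to 1.25); scaled by library totals they stood at 0.27 and 0.03. Noncoding hosts outside this list were 2410006H16Rik, the host of Snord49a, Snord49b and Snord65, which was called higher (log2 1.23, SE 0.21, edgeR adjusted p = 0.0198), and, among those not called, 1500012F01Rik, which holds Snord12 (log2 0.96), and Dancr (log2 0.86).

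Few of the proteins that form, move and trim these RNAs were called. Of the 4 core proteins of box C/D particles none was called (median log2 0.26), with the methyltransferase fibrillarin (Fbl) at -0.12 and the box-binding protein Nhp2l1 at 0.42. Of the 4 core proteins of H/ACA particles none was called (median 0.27), with dyskerin (Dkc1) at -0.03 and Nhp2 at 1.15 (SE 0.28, edgeR adjusted p = 0.0648). Unadjusted p-values under 0.05 with a rise were found for 1 and 2 of these proteins, none with a fall. None of 11 assembly factors was called (3 higher by unadjusted p, median 0.27; Pih1d1 0.95, edgeR adjusted p = 0.0715). None of 18 Cajal body and SMN complex genes was called (3 higher by unadjusted p, median 0.08). Its 2 smallest p-values were those of Gemin7, a part of the SMN complex (1.09, edgeR adjusted p = 0.0904), and Phax, an export adaptor (0.49, adjusted p = 0.0994). DESeq2 called Nhp2 (adjusted p = 0.00357), Pih1d1 (0.00883) and Gemin7 (0.0118) higher. Without WT1, edgeR called the same 3 and Phax (adjusted p = 0.00269 for Nhp2, 0.0148 for Pih1d1, 0.00107 for Gemin7 and 0.045 for Phax). Of 20 other ribosomal RNA modification and processing genes none was called (2 higher and 0 lower by unadjusted p, median -0.03). Beside the 13.3% of all genes that were higher by unadjusted p, the counts of 3 in 18 and 2 in 20 are near the background. The counts of 1 in 4, 2 in 4 and 3 in 11 are larger shares of few genes. Whether those lists differ from the background was not tested.

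Of 28 genes of 3′ end trimming and RNA decay, which include the nuclear exosome, 1 was called lower and 0 higher, with a median log2 fold change of 0.13. Papd5, a poly(A) polymerase that marks nuclear RNAs, small nucleolar RNAs included, for the exosome, stood at 10.9, 10.3 and 10.3 scaled CPM in LCS and at 15.7, 17.1 and 20.1 in WT. The groups did not overlap and the level was 1.68-fold lower in LCS (log2 -0.75, SE 0.16, edgeR adjusted p = 0.0433). Of the fits that left out 1 library, the call held only in that without WT1: without LCS1, LCS2, LCS3, WT2 or WT3 the log2 fold change was -0.77 to -0.64 with adjusted p-values of 0.0692 to 0.182. Exosc5, an exosome subunit, had 0.81 (edgeR adjusted p = 0.0913) and Dis3, an exosome nuclease, -0.65 (adjusted p = 0.117).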

How the data were processed

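Whole-number counts per gene were deposited by the authors as 1 table of 24407 genes and 6 libraries, not normalised. The build named in the submitters' processing notes is mm9, and the tools listed there, without roles, are HTSeq 0.9.0, TopHat2 2.1.1, Bowtie2 2.2.9, FastQC and bcl2fastq 2.20. Annotation, strand setting and the handling of reads that match several genes: not given in the sources used here. Therefore members with near-identical copies, within host exons or on the opposite strand of another gene are uncertain. TRIzol extraction and a stranded TruSeq kit were used, per the labels' protocols.

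Source names in the labels set the groups, and replicate numbers follow accession order. The test used edgeR 4.0.16 in R 4.3.3: filterByExpr at its default (minimum count 10), TMM scaling, a quasi-likelihood fit with genotype as the only term over 6 libraries, and Benjamini-Hochberg adjustment over 14539 genes. The common biological coefficient of variation was 21.2%. No p was computed for a sum or list of members. Counts per host count used 0.5 added to each. On simulated counts of 14421 genes in 3 draws, 56.8% of 2-fold and 90.3% of 4-fold changes were found, and 5.24% of called genes were unchanged.

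Members were matched by gene number to RefSeq (114 of 114) and by name to GENCODE M21 (112). Both use GRCm38, which differs from mm9, so no coordinates are given. The members and lists were chosen with earlier results of these data known. Named were the called members, with full statistics for up to 8 per class, the 5 most abundant uncalled members per class, the 3 most abundant untested ones, their hosts (a few are not reported here), and in each list the called genes and up to 3 others with the smallest p. Snord2, Snord23, Snord33, Snord34, Snord37, Snord38a, Snord87, Snord99, Snord100, Snord116 with its copies, Snora15, Snora24, Snora33, Rps12, 2410006H16Rik, 1500012F01Rik, Dancr, Ppy, Sst, Lyz2, Adgre1, Csf1r and Cd68 were named after their values were seen. Alternatives used DESeq2 1.42.0 and limma 3.58.1 (voom), 3 other scalings, 2 other filters, the ribosomal entries left out, a test against 1.5-fold, and libraries left out. Figures were drawn with matplotlib 3.10.9.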

Additional observations from a re-analysis of the deposited data

How the results depend on the processing

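Of the 25 members called higher, all kept a positive fold change and 16 kept their call in every alternative, up to 16 per member; 3 lost it in 1 to 3 alternatives and 6 in 4 or more. The number called was 19 to 29 when each library was left out (4 of these 6 fits gave 21). It was 29 with DESeq2, 24 with limma-voom, 20 against 1.5-fold and 22 at 1 CPM in 3 libraries. Of all genes, 6.44% were called higher by DESeq2, 12.5% without WT1 and 0.547% without LCS3. Snora calls fell to 6 against 1.5-fold and ranged from 5 to 11 over the libraries left out. With no low-count filter, 1 of 102 members tested was called lower, Snora15. The members' median log2 fold change was 3.63 at 1 CPM in 3 libraries, where 27 were tested, and 1.54 to 2.30 when each library was left out. The ratio of shares was 4.19 over all counts. At a minimum of 10 counts LCS libraries held on average 15 more members than WT libraries, while at 1 count they held fewer.

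Scaling by library totals moved the median of all genes to -1.06, with 78.8% of genes called lower and 0.647% higher. Relative to this shift the members' median of 0.80 lay 1.86 above it, near the 1.83 of TMM, and 26 members were called higher and 6 lower (Snora81, Snord2, Snord12, Snord37, Snord47 and Snord96a). Under these totals Snora70 was not called (0.69), and of 32 named genes that turned from above 0 to below it 19 were called in one of the fits: Atg16l1 -0.88, Rpl23 -0.29, Snhg12 -0.78, Tbrg4 -0.67, Rpl10 -0.81, Rps3 -0.62, Snx5 -1.04, Snhg1 -0.94, Rpl3 -0.71, Nhp2l1 -0.66, Nop56 -0.78, Nop58 -0.85, Nop10 -0.59, Gar1 -1.02, Znhit3 -0.57, Ruvbl1 -0.63, Phax -0.59, Smn1 -0.57 and Emg1 -0.61. The other 13, which were called in neither, were 7 members and 6 hosts or pathway genes, Rpl32, Pih1d1, Exosc5 and Imp3 among them. Low depth limits the 45 untested members, and 2-fold changes were found in little more than every other simulated gene.

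No paired analysis was possible because the labels give no replicate numbers shared between the groups.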
